A study of Mus musculus with 32 samples.

Results

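The genes described here encode the subunits of the proteasome and 3 chaperones that assemble its regulatory particle. They were chosen by name alone, as every gene symbol made of Psma, Psmb, Psmc or Psmd followed by a number that is listed in each of the 5 deposited tables. This rule gave 39 genes of the 55289 named genes per table. It used no measured value, though earlier results of these data were known when the genes were chosen. The study profiled uncapped polyadenylated RNA (degradome sequencing) in whole brain, heart, kidney, liver and spleen of mice labelled Ftsj1_DF, deficient in the RNA 2′-O-methyltransferase Ftsj1, and of WT mice. All mice were males of 4 months without special treatment, and several were brothers. How the deficiency was made is not given in the sources used here. Brain, heart, kidney and liver came from the same 6 mice, 3 per genotype, and spleen from 8 further mice, 4 per genotype.

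The authors' deposited tables, 1 per organ, give each gene's normalized count, averaged by the authors across the libraries of an organ, and a DESeq2 comparison of the genotypes, but no value per library. A level is given here in ppm, parts of the summed means of its table per 1000000, and a change as the deposited log2 fold change ± its standard error, positive where the deficient mice were higher. This direction was read from Ftsj1 itself, whose log2 fold change was negative in all 5 tables, between -3.38 and -1.56, though it did not pass 5% in heart (adjusted p = 0.594) and kidney (adjusted p = 0.202) by DESeq2. The summed means lay between 48536400 and 73405500 normalized counts. Hepatocyte markers made up 23.7% of the table named for brain and 0.270% of that named for liver, whereas neuron markers summed to 1849 ppm in the latter and 18.4 ppm in the former. These tables are therefore called brain-named and liver-named. Cardiomyocyte, proximal tubule and B and T cell markers were highest in the tables of heart, kidney and spleen, and pancreatic acinar markers made up 14.5% of the spleen table.

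The proteasome degrades proteins tagged with ubiquitin. Its 20S core is a barrel of outer alpha rings and inner beta rings, and 3 beta subunits carry the protease sites: Psmb6 (beta 1), Psmb7 (beta 2) and Psmb5 (beta 5). Under interferon-gamma, and constitutively in many immune cells, these are replaced during assembly by Psmb9, Psmb10 and Psmb8, giving the immunoproteasome, which favours peptides for MHC class I presentation. The 19S particle caps the core, with a ring of ATPases (Psmc) that unfold substrates and non-ATPase subunits (Psmd), some of which bind or trim ubiquitin. Reads of this assay mark 5′ ends of uncapped RNA, so a level depends both on how much mRNA a gene makes and on how much of it is uncapped, and it is not a measure of protein.

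The promoters of Psmb9, Psmb8 and Psmb5 are shown because the levels of these catalytic genes differed most between the organs. RefSeq windows from 250 bases before to 50 after the start (build GRCm38.p6, which is older than the GRCm39 of the deposited data) were matched by symbol for 32 of the 39 genes. Psmb9 and Tap1, a peptide transporter gene of the same pathway, start back to back, and the 225 bases between their starts, chr17:34187331-34187555, are given on the minus strand, which reads towards Psmb9. The stretches of Psmb8, chr17:34197945-34198194 on the plus strand, and of Psmb5, chr14:54617996-54618245 on the minus strand, are the 250 bases before the start. Capitals mark TGANNNNGC, the core of the antioxidant response element, and CCAAT, on either strand.
Psmb9: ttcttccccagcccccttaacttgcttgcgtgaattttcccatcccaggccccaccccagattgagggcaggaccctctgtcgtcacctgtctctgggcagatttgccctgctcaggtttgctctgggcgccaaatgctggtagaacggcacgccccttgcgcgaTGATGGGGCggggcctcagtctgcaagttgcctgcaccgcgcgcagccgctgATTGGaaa
Psmb8: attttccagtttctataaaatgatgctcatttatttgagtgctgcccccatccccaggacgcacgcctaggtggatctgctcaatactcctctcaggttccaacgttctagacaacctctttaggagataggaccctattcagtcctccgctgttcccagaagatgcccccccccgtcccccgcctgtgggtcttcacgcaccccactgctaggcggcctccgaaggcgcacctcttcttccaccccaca
Psmb5: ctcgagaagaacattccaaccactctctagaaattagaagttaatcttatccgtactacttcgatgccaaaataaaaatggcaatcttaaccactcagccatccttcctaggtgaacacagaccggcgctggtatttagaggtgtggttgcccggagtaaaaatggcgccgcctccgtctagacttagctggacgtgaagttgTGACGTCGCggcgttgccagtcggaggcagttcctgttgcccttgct
The stretch of Psmb9 held 1 match of each of these motifs, that of Psmb5 1 match of TGANNNNGC, and that of Psmb8 none. The window of Psmb8, which runs 50 bases past the start, did hold TGANNNNGC. TGANNNNGC occurred in the windows of 19 of the 32 genes (59.4%) and in 41.3% of all 32851 windows. CCAAT occurred in 13 (40.6%), against 37.4% of all windows. The core of the interferon-stimulated response element, a pair of GAAA with 2 bases between them, occurred in 3 (9.38%), those of Psmb3, Psmd4 and Psmd9, against 3.44% of all windows. These letter matches are a description, and overlaps between motifs were not counted.

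The level of uncapped immunoproteasome RNA was highest in spleen, where the constitutive genes Psmb5 and Psmb6 were lowest. Psmb9, the beta 1 subunit of the immunoproteasome, stood at 465 ppm in the authors' deposited spleen table, against 70.5 in kidney, 62.7 in heart, 51.2 in the brain-named and 16.0 in the liver-named table. The tables were normalized separately, so no test was made of levels between them. Spleen also came from other mice, so organ and group of mice cannot be told apart in its levels. With the standard error of the fold change divided by 2 as an approximate error of a log2 level, spleen lay more than 2 such errors above each other table and the liver-named table more than 2 below, while kidney, heart and the brain-named table did not differ beyond that spread. Psmb8, the beta 5 subunit of the immunoproteasome, followed a like order, with 40.5 ppm in spleen, 17.04 in the brain-named, 15.7 in the kidney, 10.2 in the heart and 5.61 in the liver-named table. Here spleen and the liver-named table again lay apart from all others, and kidney did not differ from either of its neighbours beyond the spread.

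Psmb10, the beta 2 subunit of the immunoproteasome, was listed at 0 in all 5 tables. The same was true of 1456 of 21218 RefSeq protein-coding symbols found in the tables (6.86%), among them B2m, the light chain of MHC class I, and Actc1, the cardiac actin gene. Nothing can therefore be said of the level of Psmb10.

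Psmb5 and Psmb6 ran the other way. Psmb5, the constitutive beta 5 subunit, was listed at 54.2 ppm in the liver-named, 41.8 in the brain-named, 38.0 in the kidney, 13.5 in the heart and 9.44 in the spleen table. The first 3 of these did not differ from each other beyond the spread, nor did heart from spleen, and the groups of 3 and 2 lay apart. Psmb6, the constitutive beta 1 subunit, stood at 172 ppm in the liver-named, 152 in the brain-named, 151 in the kidney, 69.5 in the heart and 42.0 in the spleen table, with the same upper 3 tables and with heart above spleen. Psmb7, the constitutive beta 2 subunit, varied least of the catalytic genes, from 2.92 ppm in the brain-named to 5.99 in the heart table, and only these 2 differed beyond the spread.

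Lengths of the transcripts were not used here, so a ratio of 2 genes has no meaning within a table and is compared only between tables, where a gene's length is shared. The ratio of Psmb8 to Psmb5 was 4.29 in spleen, 0.755 in heart, 0.414 in kidney, 0.407 in the brain-named and 0.103 in the liver-named table. The ratio in spleen was thus 5.69-fold that in heart, a log2 difference of 2.51 ± 0.54 (approximate error), and 41.5-fold that in the liver-named table. For Psmb9 to Psmb6 the ratio was 11.1 in spleen, 0.903 in heart, 0.466 in kidney, 0.336 in the brain-named and 0.0933 in the liver-named table. Spleen was 12.3-fold heart and 119-fold the liver-named table in this ratio. The order of the 5 tables was the same for both pairs, though kidney and the brain-named table did not differ beyond the spread in either. In the ratio of Psmb8 to Psmb5, heart did not differ beyond the spread from kidney or from the brain-named table.

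**Figure D1:**
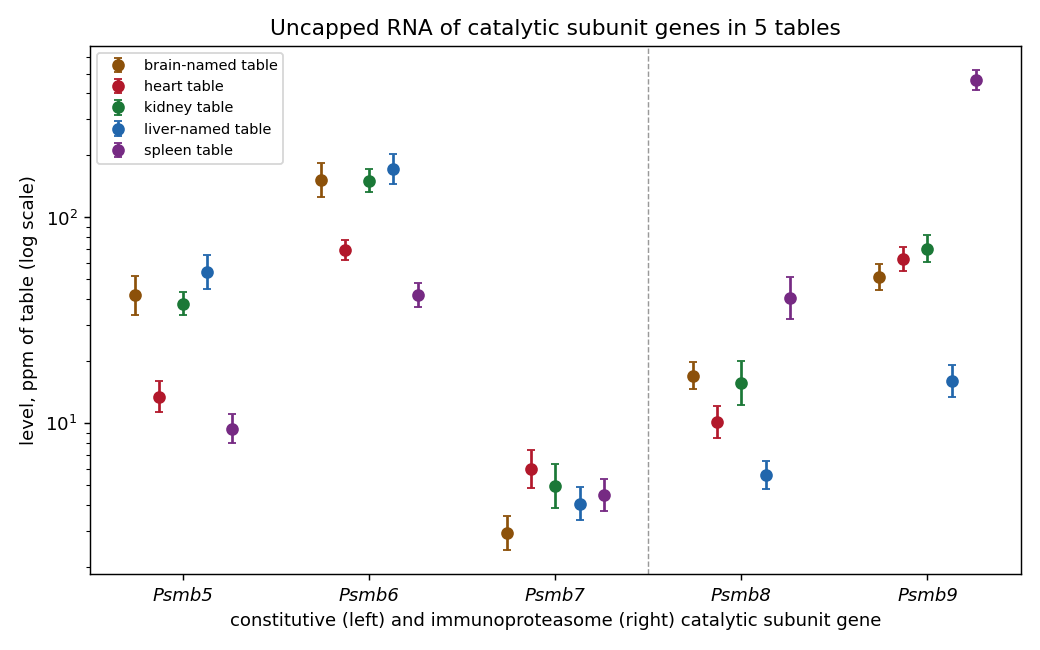
Level of the 5 measured catalytic subunit genes in each table, as normalized count in ppm of the table on a log axis; points are the authors' means over both genotypes and bars ± 1 approximate standard error. Psmb9 reaches 465 ppm in the spleen table, while Psmb5 and Psmb6 are lowest there at 9.44 and 42.0.

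Leukocyte markers were highest in spleen too, but their sum did not follow the order of Psmb8 and Psmb9 among the other tables. Ptprc, which encodes CD45, stood at 51.7 ppm in spleen, and elsewhere from 1.13 in the liver-named table to 3.86 in kidney. Coro1a stood at 100.02 in spleen against 0.859 to 9.27. The 3 pan-leukocyte markers, none of them at 0, summed to 1855 ppm in spleen, 102.9 in the liver-named table, 94.6 in kidney, 89.5 in heart and 39.8 in the brain-named table. The liver-named table, lowest in Psmb8 and Psmb9, thus came second in this sum and in Coro1a. It was lowest in Ptprc, without differing from heart there beyond the spread. The markers' part in the result was not tested. Most of the sum was Laptm5, at 92.5 ppm in the liver-named, 88.9 in the kidney and 87.4 in the heart table. These levels of Laptm5 did not differ beyond the spread. In whole organs a smaller number of cells of a type and less RNA per cell cannot be told apart. Tap1, which shares the stretch printed above with Psmb9, also had its highest level in spleen, 170 ppm, and its lowest in the liver-named table, 13.0. Its order in between was that of Psmb8, with 43.3 in the brain-named, 32.7 in the kidney and 24.1 in the heart table. The brain-named table lay above heart beyond the spread, whereas for Psmb9 these tables did not differ beyond it. Over the 5 tables the members most like Psmb8 in log2 level were Psmb9 (Pearson r = 0.946), Psma8 (r = 0.774) and Psma4 (r = 0.673), a description over 5 points that share the spleen value. Psma8 had no p-value in spleen, where its level was 123 ppm, and without it the next member was Psmb3 (r = 0.639).

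Most other subunits kept closer levels across the organs. Over the 36 members with a mean of at least 20 in each table, the highest table exceeded the lowest by a median of 3.25-fold, against 6.64-fold over all 14738 such genes. Of these 36 members 10 ranged over more than 4-fold, against 11019 of all 14738 such genes. Psmb1, a structural beta subunit, ranged over 9.77-fold, with 236 ppm in the brain-named, 198 in the liver-named, 151 in the kidney, 26.5 in the spleen and 24.1 in the heart table. The upper 3 tables lay apart from the lower 2 for Psmb1, as for Psmb5. Psmd11 and Psmd13, non-ATPase subunits of the 19S lid, had this pattern too, with heart at 11.4 and 15.7 ppm and spleen at 12.3 and 25.0, against 33.5 to 65.4 and 68.9 to 80.0 ppm in the other 3 tables.

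Psmd4, the ubiquitin receptor also called Rpn10, had its highest levels in heart and spleen, where those genes were lowest. Its level in kidney did not differ from spleen beyond the spread, and lay above the liver-named table beyond it. Psmd4 had the highest mean of all members in 4 tables, with 1074 ppm in heart, 1048 in spleen, 693 in kidney and 269 in the brain-named table. In the liver-named table its 368 ppm lay next to the 370 ppm of Psmd6, another lid subunit, which had the highest mean there. The summed level of the 39 genes was 3077 ppm in heart, 3411 in kidney, 3101 in spleen, 2219 in the brain-named and 3311 in the liver-named table. This order depended on the most abundant genes: without the 10 of highest mean in a table, the sums were 3901, 3619, 4343, 3516 and 3480 ppm, so that spleen was highest and the brain-named table no longer lowest. Of the 36 members 17 had their highest level in the liver-named table, against 37.7% of all such genes, and 13 and 12 had their lowest in the brain-named and the spleen table, against 46.4% and 16.2% of all.

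**Figure D2:**
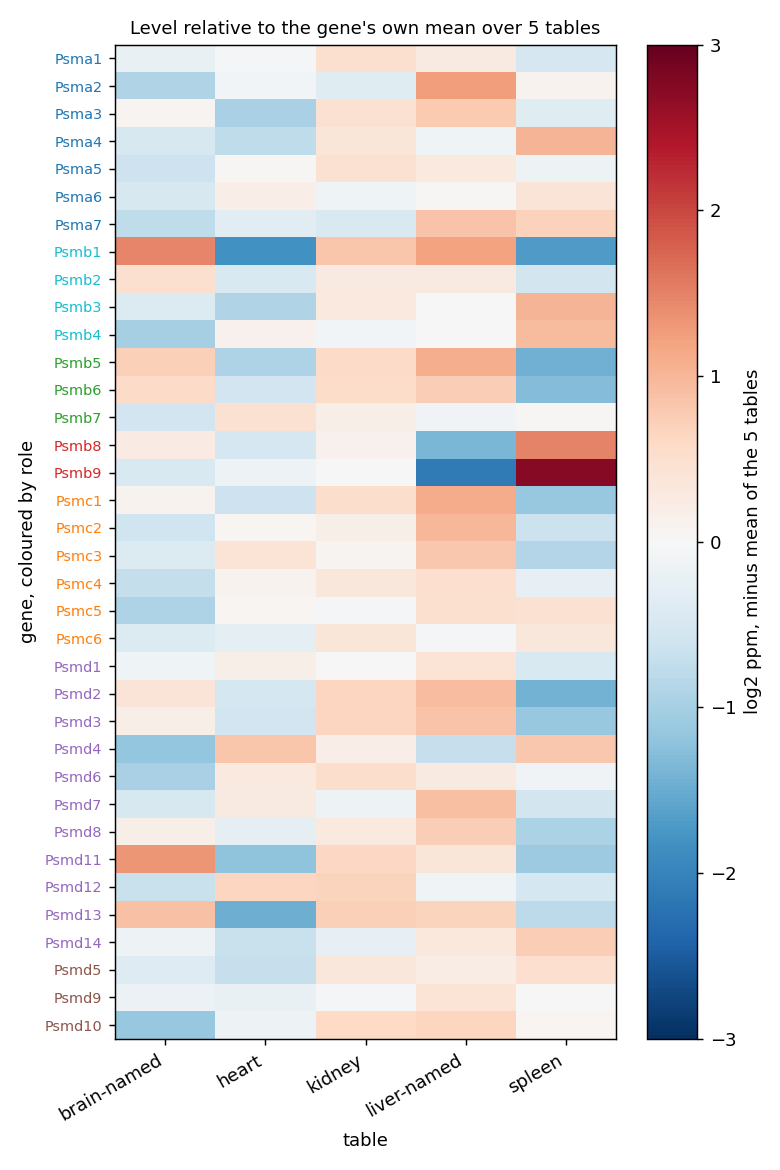
Heat map of the level of 36 members in the 5 tables, as log2 ppm minus the gene's own mean over the tables; rows are ordered and their names coloured by role. Psmb8 and Psmb9 are red in spleen and blue in the liver-named table, and Psmb1, Psmb5, Psmd11 and Psmd13 are blue in heart and spleen.

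Between the genotypes, no proteasome subunit gene passed the threshold in any organ. In the authors' deposited tables an adjusted p was given for 37 members in heart, kidney and the brain-named table, for 38 in the liver-named table and for 35 in spleen. None was under 5% by the DESeq2 Wald test, where the called share of all tested genes was 1.19% in heart, 2.07% in kidney, 0.217% in spleen, 0.414% in the brain-named and 0.203% in the liver-named table. At an unadjusted p under 0.05 there were 2 members in heart (5.41% of those tested), 1 in kidney (2.70%), 0 in spleen, 4 in the brain-named (10.8%) and 3 in the liver-named table (7.89%). The same threshold was met by 10.6%, 11.9%, 5.97%, 10.8% and 10.4% of all tested genes in that order, so the members' share was at or below the background in each table. At the members' median standard error, a change had to reach about 1.15 in heart and 2.10 in spleen on the log2 scale to be called. The 95% interval of the change lay within a log2 value of -1 to 1 for 23 tested members in heart, 17 in kidney, 1 in spleen, 9 in the brain-named and 5 in the liver-named table. Changes below about 1.15 in heart or 2.10 in spleen could be called only for members with standard errors under the median.

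**Figure D3:**
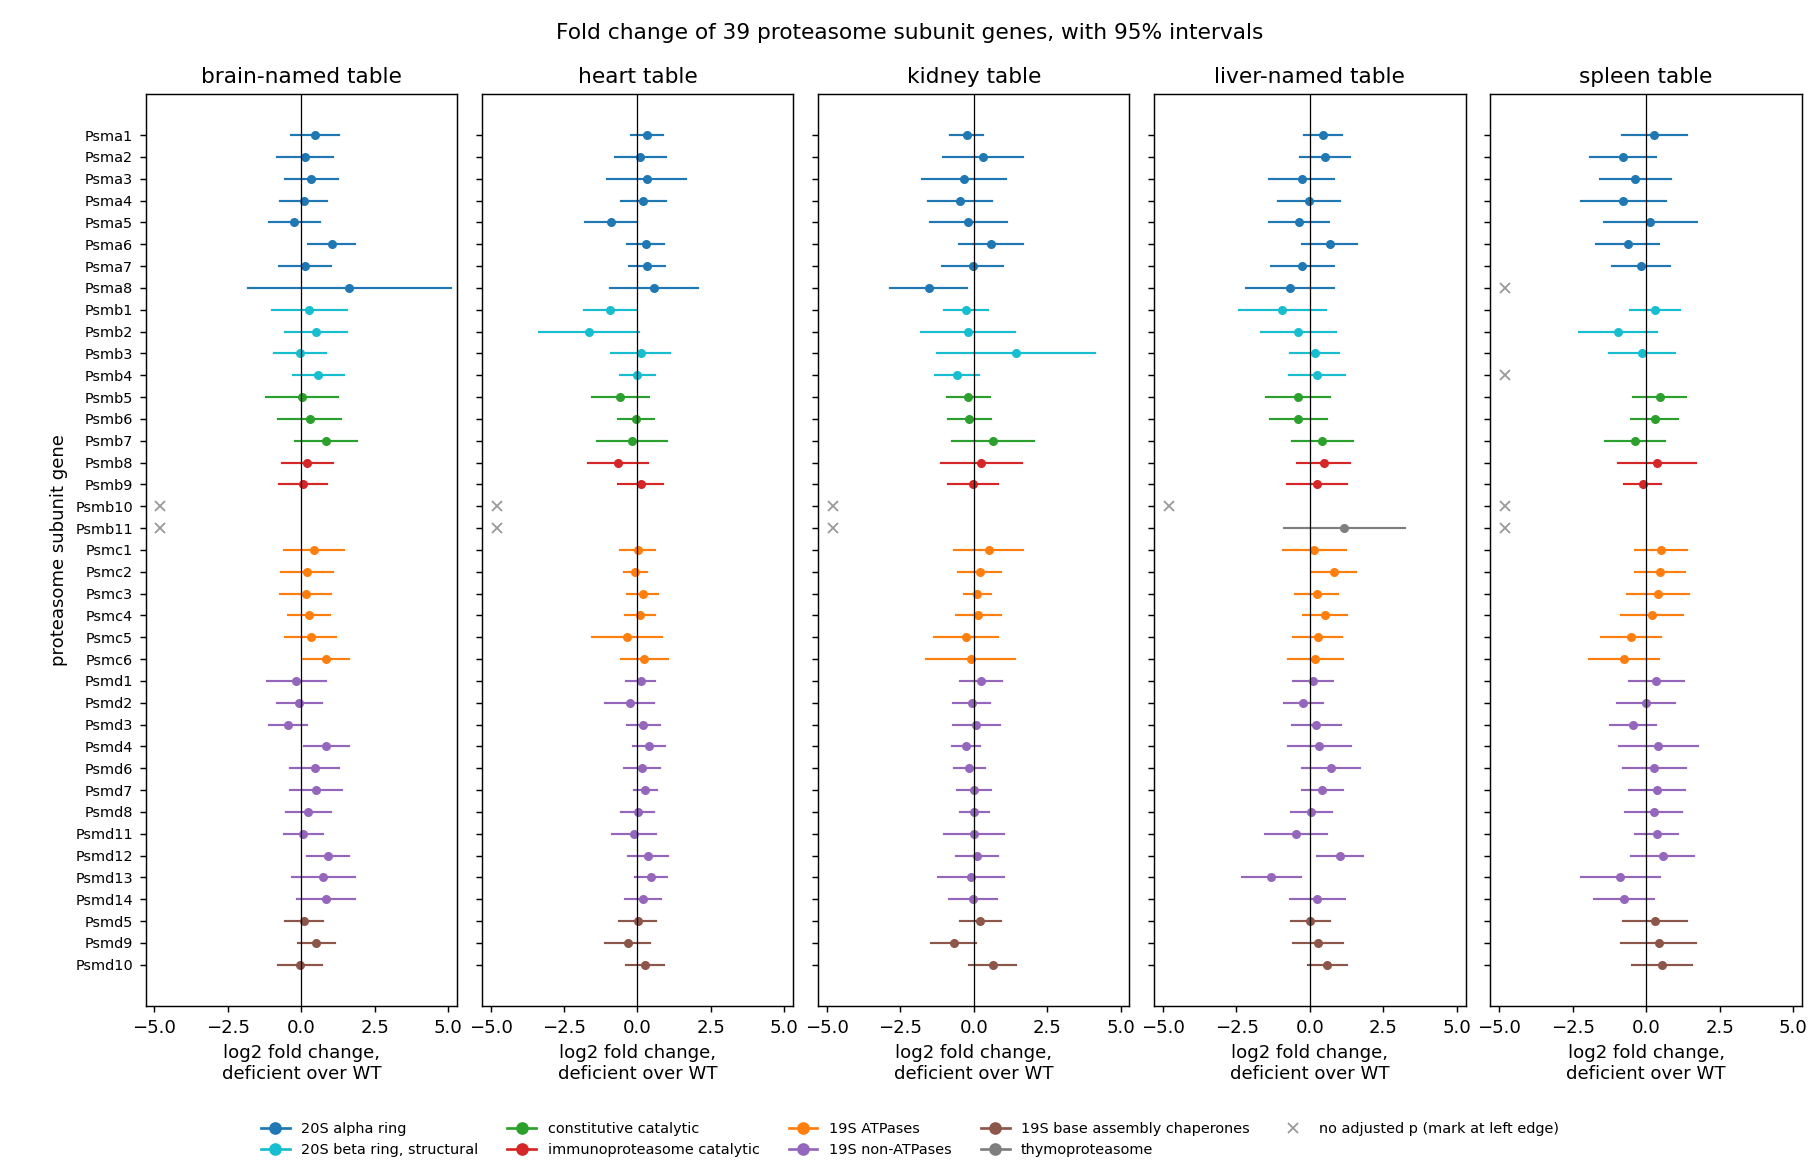
Deposited log2 fold change, deficient over WT, of the 39 genes in each table, with 95% intervals and colours for the role of the subunit; crosses at the left edge mark genes without an adjusted p. Most intervals span 0, and those that do not, such as Psmd13 in the liver-named table (-1.32), did not pass after adjustment.

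No catalytic subunit gene, constitutive or of the immunoproteasome, passed the threshold in any table, and each value lay within 2 standard errors of 0. Psmb9 had log2 fold changes of 0.11 ± 0.39 in heart, -0.03 ± 0.44 in kidney, -0.12 ± 0.32 in spleen, 0.06 ± 0.42 in the brain-named and 0.25 ± 0.52 in the liver-named table. In spleen, where its level was highest, the deposited mean and fold change imply 21748 normalized counts in deficient and 23579 in WT mice, taking the groups as of equal size. Psmb8 stood at -0.66 ± 0.52, 0.27 ± 0.71, 0.37 ± 0.67, 0.20 ± 0.44 and 0.47 ± 0.46 in the same order of tables. The 2 genes thus had opposite signs in heart, kidney and spleen.

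Among the constitutive partners, Psmb5 had -0.59 ± 0.49, -0.18 ± 0.37, 0.46 ± 0.46, 0.01 ± 0.63 and -0.40 ± 0.56, again in the order heart, kidney, spleen, brain-named and liver-named. Psmb6 had -0.05 ± 0.32, -0.15 ± 0.37, 0.29 ± 0.40, 0.28 ± 0.54 and -0.40 ± 0.49. Psmb7 reached 0.85 ± 0.54 in the table named for brain, with an adjusted p of 0.632 by DESeq2, and was negative in heart and spleen. The mean of Psmb8 and Psmb9 minus the mean of Psmb5, Psmb6 and Psmb7 was -0.0062 in heart, 0.0060 in kidney, 0.0079 in spleen, -0.25 in the brain-named and 0.48 in the liver-named table. If the genes' errors were independent, these differences would have standard errors between 0.43 and 0.51, so none of these values reached 2 errors. With Psmb8 and Psmb9 set against Psmb5 and Psmb6 alone, the difference was 0.039 in heart, 0.28 in kidney, -0.25 in spleen, -0.019 in the brain-named and 0.76 ± 0.51 in the liver-named table, so the sign turned in heart and spleen. Genes of 1 table share libraries, so no test was made.

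Of the other 20S subunits, the alpha ring had a positive change for 7 of 8 genes in the brain-named and in the heart table, for 2 of 8 in kidney, for 3 of 8 in the liver-named table and for 2 of 7 in spleen. Psma6 was the member nearest to the threshold in the brain-named table, at 1.04 ± 0.40 (unadjusted p = 0.0103, adjusted p = 0.250 by DESeq2), with implied means of 350.0 normalized counts in deficient and 171 in WT mice. In spleen its change was -0.63 ± 0.55. Psma5 was at -0.90 ± 0.46 in heart (adjusted p = 0.464 by DESeq2). Psma8, the alpha subunit of germ cells, had few counts in 4 tables, with means of 15.7 to 217, and its errors were wide, with 0.57 ± 0.77 in heart, -1.53 ± 0.67 in kidney, 1.64 ± 1.77 in the brain-named and -0.67 ± 0.77 in the liver-named table.

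In spleen, Psma8 had a mean of 5970 normalized counts and a log2 fold change of 6.10 ± 2.01, without a p-value. Psmb4 also had none there, at -1.02 ± 0.66. DESeq2 by default withholds the p of a gene with an extreme count in a library, and which library this was cannot be read from the tables. Psmb1 and Psmb2, structural beta subunits, were the lowest members in heart, at -0.93 ± 0.45 and -1.64 ± 0.87 (adjusted p = 0.425 and 0.5003 by DESeq2). Psmb2 was also the lowest tested member in spleen, at -0.96 ± 0.68, before Psmd13 and Psma2, the latter at -0.78 ± 0.57, and Psmb1 stood at -0.94 ± 0.76 in the table named for liver. Psmb3 had the highest value in kidney, 1.43, with an error of 1.37. Psmb11, the catalytic subunit of thymic epithelium, was the lowest member above 0 in every table, with means of 1.25 to 14.8, and was tested in the liver-named table alone, at 1.17 ± 1.05.

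Among the 19S ATPases, all 6 were positive in the brain-named and in the liver-named table, with medians of 0.28 and 0.25, and 4 of 6 in each of the other 3. Psmc6 in the brain-named table was at 0.84 ± 0.40 and Psmc2 in the liver-named table at 0.82 ± 0.38 (adjusted p = 0.417 and 0.407 by DESeq2). Psmc1, at 0.51 ± 0.45, came after Psmd12 and Psmd10 (0.53 ± 0.52) among the highest members in spleen. Of the 11 non-ATPases, 9 were positive in heart, 6 in kidney, 7 in spleen and 8 in each of the brain-named and liver-named tables. Psmd12, a lid scaffold subunit, was at 0.92 ± 0.37 in the brain-named and 1.03 ± 0.41 in the liver-named table, with adjusted p of 0.275 and 0.300 by DESeq2, and was the highest tested member in spleen at 0.56 ± 0.54. Psmd4 stood at 0.86 ± 0.39 in the brain-named and 0.40 ± 0.28 in the heart table but at -0.26 ± 0.25 in kidney. Psmd3, a further lid subunit, was lowest in the brain-named table at -0.45 ± 0.33, before Psma5 at -0.24 ± 0.45 and Psmd1 at -0.17 ± 0.51.

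Psmd13 had the change farthest from 0 of the lid subunits. In the authors' deposited liver-named table it was at -1.32 ± 0.51 (unadjusted p = 0.0102, adjusted p = 0.293 by DESeq2), with implied means of 2691 normalized counts in deficient and 6702 in WT mice. In spleen it was at -0.88 ± 0.69, but at 0.75 ± 0.55 in the brain-named and 0.46 ± 0.27 in the heart table. The difference between heart and the liver-named table, 1.78 ± 0.58, had a p of 0.00217 and an adjusted p of 0.233 over the 18769 genes tested in both by a z test on the DESeq2 values. This was the smallest adjusted p of any member in the 10 pairs of tables. Over all pairs, 0 of 362 member differences passed 5%, where 0.393% of all differences did, and 12 (3.31%) had an unadjusted p under 0.05, against 7.87% of all. These z tests take the tables as independent, although 4 organs came from the same mice.

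The assembly chaperones Psmd5, Psmd9 and Psmd10, which build the base of the 19S particle, were all positive in spleen and in the liver-named table, with medians of 0.43 and 0.27. Psmd9 was among the lowest members in kidney, at -0.67 ± 0.39, with Psmb4 at -0.57 ± 0.38, and Psmd10 came after Psmb3 and Psmb7 (0.67 ± 0.71) among the highest, at 0.64 ± 0.42. Both had unadjusted p above 0.05.

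Over all tested members the median log2 fold change was 0.11 in heart, -0.03 in kidney, 0.26 in spleen, 0.28 in the brain-named and 0.22 in the liver-named table. Over all tested genes it was 0.01, -0.01, -0.01, 0.04 and -0.05. The members' mean weighted by 1/SE squared was 0.036 in spleen, well under the median there. Positive values were held by 31 of 37 members in the brain-named table (83.8%, against 53.3% of all genes) and 26 of 38 in the liver-named table (68.4%, against 47.1%). They were held by 24 of 37 in heart (64.9%, against 51.1%), 17 of 37 in kidney (45.9%, against 49.1%) and 20 of 35 in spleen (57.1%, against 49.5%). In the brain-named comparison, 37 of 43 tested marker genes of the cell type lists were positive too, with a median of 0.47, and those of pancreatic acinar cells, 5 tested and 1 of 8 at 0, had a median of 3.85. Their part in the members' values was not tested. Of the 35 members tested in every table, 7 were positive in all 5 (20%, against 6.53% of 15601 genes): Psmc1, Psmc3, Psmc4, Psmd5, Psmd7, Psmd8 and Psmd12. All 7 fall in the class of higher counts described below. Of all genes of that class 59.9% were positive in heart, 51.7% in kidney, 63.1% in spleen, 55.0% in the brain-named and 61.2% in the liver-named table. Some values were near 0, as for Psmd7 in kidney (0.0006) and Psmd5 and Psmd8 in heart (both 0.005). Signs in organs of the same mice are not independent. Psmd2 was the only member negative in all 5, where 4.73% of all genes were.

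In spleen the sign of the change differed between members of lower and of higher counts over the tables. After the values had been seen, the 36 members with means of at least 20 were divided into 13 with a mean under 1000 in at least 4 tables and 23 others. In spleen 12 of the 13 lower-count members were negative, with a median of -0.63, and 19 of the 23 others positive, with a median of 0.35. Without Psmb4, which had no p there, 11 of 12 lower-count members were negative, with a median of -0.58. The lower-count class held Psma2 to Psma7, Psmb2, Psmb3, Psmb4, Psmb7, Psmc5, Psmc6 and Psmd14, so 10 of its genes belong to the 20S core. Psmb5, Psmd11, Psmc1 and Psmd10 also had spleen means under 1000, from 460 to 897, but were among the others and positive. The sign thus went less closely with the counts in spleen itself. Among all genes of the lower class, tested in spleen, 52.6% were negative, with a median of -0.04, and among those of the higher class 36.9%, with a median of 0.14. In the brain-named table the medians of the member classes were 0.35 and 0.23, in heart 0.12 and 0.10, in kidney -0.10 and 0.00272, and 0.18 and 0.23 in the liver-named table. No member of either class passed in spleen, and since the classes were made with the values in view they were not tested.

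**Figure D4:**
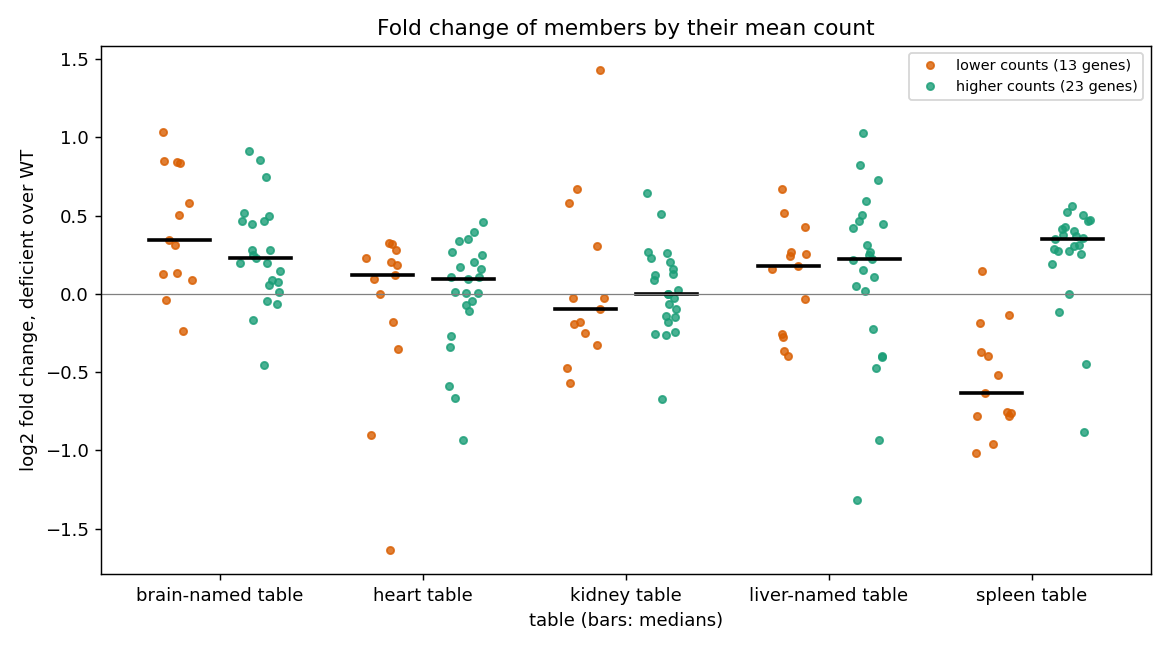
Log2 fold change, deficient over WT, of the 13 members with lower and the 23 with higher counts in each table; each point is a gene and bars are medians. The classes overlap in every table, and their medians lie farthest apart in spleen, at -0.63 and 0.35.

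The other genes of the pathway, in 7 lists of 61 genes of which Paaf1 was not listed in the tables, gave 3 calls, all among interferon-stimulated genes: 1 of 57 tested in heart, 1 of 58 in kidney and 1 of 58 in the brain-named table, against 1.19%, 2.07% and 0.414% of all tested genes. Isg15, a ubiquitin-like modifier, rose by 0.85 ± 0.20 in heart (adjusted p = 0.00627), Usp18, which removes it, by 5.53 ± 0.78 in kidney (adjusted p = 3.15e-09) and Ifi27l2a by 1.41 ± 0.33 in the table named for brain (adjusted p = 0.0162), all on the log2 scale and by the authors' DESeq2 test. None of these passed in a second table. The immunoproteasome genes, which interferon also induces, did not pass beside them, as given above. Of the interferon list 10 of 12 tested genes were positive in each of heart, kidney and spleen, 11 of 12 in the brain-named and 10 of 11 in the liver-named table, with medians between 0.24 and 0.60. This list has been described from these data before and is no independent evidence.

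Of the activators and inhibitor of the core (Psme1, Psme2, Psme3, Psme4, Psmf1), 0 of 5 passed in any table and 0 had an unadjusted p under 0.05. Psme3, which caps the nuclear proteasome, was nearest, at 0.46 ± 0.25 in heart. Of the list of 20S assembly factors and further 19S parts, Pomp, the core's maturation factor, was at 0.87 ± 0.38 in the brain-named and Sem1, a small lid subunit, at 0.50 ± 0.22 in the heart table (adjusted p = 0.333 and 0.345 by DESeq2). Of the deubiquitinases and shuttles, Rad23b, a shuttle that carries ubiquitinated proteins, was at 0.81 ± 0.32 in the liver-named and Uchl5 at 0.83 ± 0.35 in the kidney table (adjusted p = 0.295 and 0.244 by DESeq2).

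Of the ubiquitin list, none of the genes described here passed in the brain-named table. Rps27a, which encodes ubiquitin in fusion with a ribosomal protein, was at 1.47 ± 0.47 there, Ubb, a ubiquitin gene, at 1.18 ± 0.57, and Uba1, the activating enzyme, at -0.67 ± 0.32 (adjusted p = 0.124, 0.412 and 0.420 by DESeq2). Of the transcription list, Nfe2l1, the factor that raises proteasome genes when proteolysis is blocked, was nearest in the liver-named table, at -0.79 ± 0.45. Its small Maf partners had unadjusted p under 0.05 in heart, with Mafg at 0.89 ± 0.30 and Mafk at -1.51 ± 0.56, and in kidney, with Maff at 2.25 ± 0.82 (adjusted p = 0.141, 0.194 and 0.147 by DESeq2). Of the MHC class I list, Calr was at 0.60 ± 0.28 in heart and 0.60 ± 0.31 in kidney (adjusted p = 0.408 and 0.417 by DESeq2), and Tap1 at -0.64 ± 0.39 in the brain-named table.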

How the data were processed

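Per the submitters' processing notes, featureCounts, Subread 2.0.3 and DESeq2 were used with the build GRCm39; the model, filters and DESeq2 version are not given in the sources used here. The deposited tables give per gene a signal, the authors' mean of normalized counts across an organ's libraries, a log2 fold change with its standard error, the authors' Wald statistic as a score, and their p-value before and after adjustment, as deposited. No column of another sample was present (0), and 1 row per table without a gene name was left out.

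No per-library value was used, so the authors' adjusted p was taken as the test, at 5%, and depth enters only through the standard errors; replicates are separate mice. Differences between tables were tested by z over all genes tested in both, adjusted by Benjamini and Hochberg per pair; this step was checked on simulated data. Implied genotype means assume groups of equal size. The members and lists were chosen with earlier results of these data known. Named were Psmb5 to Psmb10, the 3 highest and 3 lowest tested members per table, the members of highest and lowest mean, those without p, the 3 most like Psmb8 and those in the closest pair difference; of the pathway lists, genes past 5% and, of the others, those of smallest p over the tables; 1 gene of these lists is not reported here. Members with an unadjusted p under 0.05 and those of widest level range were named after their values were seen. Python 3.11.15, pandas 2.3.3 and scipy 1.17.1 were used. Alternatives were other thresholds, gene sets for adjustment, rescaled or centred statistics, and other averages.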

Additional observations from a re-analysis of the deposited data

How the results depend on the processing

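No paired analysis was possible because the deposited comparisons hold no values per library, so the mouse numbers could not enter as a replicate block, and no library could be left out. The count of members called stayed at 0 in each of the 5 tables under 7 alternatives per table: 1% and 10% on the adjusted p, adjustment over every gene with a p or over genes with a mean of at least 20, a statistic rescaled by its robust spread, centred fold changes, and a minimum log2 change of 1. The 0 differences between tables stayed at 0 after rescaling. The ratio of summed immunoproteasome to constitutive levels was 0.820 in heart, 0.444 in kidney, 9.04 in spleen, 0.346 in the brain-named and 0.0940 in the liver-named table, and as a ratio of geometric means without Psmb10 1.42, 1.09, 11.3, 1.11 and 0.282. Spleen was highest and the liver-named table lowest in both, and the second measure also sets 2 genes against 3. Levels per kilobase were not run, since no transcript lengths were used here. Without the 10 genes of highest mean, the members' summed share became 4343 ppm in spleen, 3901 in heart, 3619 in kidney, 3516 in the brain-named and 3480 in the liver-named table. The difference of immunoproteasome and constitutive fold changes in spleen was -0.20 with means weighted by 1/SE squared. The median of the lower-count members in spleen was -0.69 and -0.52 with limits of 500 and 2000 normalized counts, both chosen after seeing the data.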
